A study of Arabidopsis thaliana with 12 samples.

Results

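The comparison described here is that of low with high R:FR, the ratio of red to far-red light, in bud n-2, a lower axillary bud of the Arabidopsis thaliana rosette. Its members are the 3 arrays titled for bud n-2 under low R:FR and the 3 titled for bud n-2 under high R:FR, which are 6 of the 12 arrays of the study; the other 6 hold bud n, the uppermost rosette bud, under the same light treatments. Every array was an Affymetrix ATH1 array, which measures most Arabidopsis genes with short oligonucleotide probe sets, hybridised with biotin-labelled total RNA. All 4 groups shared the accession Col-8 in the Col-0 background, carried no transgene or mutation named in the labels, and were sampled at developmental stage 6.00. Each plant had its own tube in a divided chamber, in which R:FR could differ while light quantity and temperature were shared. Light was given for 18 h a day at 185 µmol per square metre per second, temperatures were 24 °C in the light and 18 °C in the dark, and a cold period of 3 days at 4 °C was part of the protocol. The labels do not say whether replicates were separate batches of plants, how many buds were pooled or how long the light treatments lasted, and a p-value therefore reflects only how far these arrays spread, which may be technical. Of 22746 probe sets, 14295 were tested, each above the 40th percentile of an array's signals on 3 or more of the 12 arrays, and 8451 lay below that filter.

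Plants read a fall in R:FR through the phytochrome photoreceptors as a sign of neighbouring leaves. Among the responses of a rosette plant is a hold on the outgrowth of axillary buds, which depends on bud position and involves auxin, cytokinin and abscisic acid. A bud that grows out builds cell walls, ribosomes and new DNA, whereas carbon-starved or growth-arrested tissue is known to use the SnRK1 kinase, autophagy and amino acid breakdown to draw on its own reserves.

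The 6 arrays of bud n-2 were separated by light treatment on the first principal component, which held 46.8% of their variance, with scores of 16.1, 13.2 and 22.2 under low R:FR and -10.7, -28.2 and -12.6 under high R:FR. Replicate 2 under high R:FR stood apart, also on the second component (19.4% of the variance), at -18.6 against 13.8 and 15.8 for its group. It is named below for many, though not all, of the results that rest on it, and some counts are given with and without it. A call given as lost in several fits that left out an array may also rest on it, as those of CSLC04 and MSRB6 do. Signs of RNA quality differed little between the light groups. The log2 ratio of 3-prime to 5-prime signal was 4.17 under low and 4.16 under high R:FR for the actin control, 0.995 and 0.810 for GAPDH and 1.44 and 1.40 for ubiquitin (exact permutation test, two-sided, p = 0.9, 0.5 and 0.7, where 3 against 3 arrays cannot go below 0.1). For actin the 3-prime signal was thus far above the 5-prime signal in both groups. The 25S rRNA control had a log2 signal of 11.3 under low and 11.1 under high R:FR (same permutation test, p = 0.2). Few tissue markers could be read. Of 18 shoot meristem and bud markers only CLV3 and LAS had a named probe set, and both lay below the 40th percentile on all 6 arrays, as did PYK10, a root marker, so the labelled bud identity could be checked only in small part. The trichome regulator TRY was above it on all 6 arrays (log2 change -0.12, adjusted p = 0.575), and of 15 flower and anther markers AMS was above it on 6 arrays (log2 change 0.48, adjusted p = 0.111) and SPL on 3 (0.24, adjusted p = 0.629). No named probe set was found for mature leaf or vascular markers.

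Low R:FR changed many transcripts of bud n-2, in both directions and mostly by small amounts. Of the 14295 probe sets tested, 620 rose (4.34%) and 785 fell (5.49%), together 9.83%, by limma with a Benjamini-Hochberg adjusted p under 0.05. The median change of the probe sets that rose was 0.50 on the log2 scale and of those that fell -0.49, against 0.01 over all tested; 42 rises and 43 falls reached 2-fold. The arrays of the light groups did not overlap for 613 of the rises and 766 of the falls, and for 28.8% of all probe sets tested. Signal was above the 40th percentile on some array of both groups for 609 rises and 739 falls. Another 9 rises were dim, that is, below that percentile on every array, under high R:FR, and 37 falls were dim under low R:FR; for these a fold is a lower bound. The remaining 2 rises and 9 falls were dim in both groups. Without high R:FR replicate 2, 369 probe sets rose and 571 fell.

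**Figure D1:**
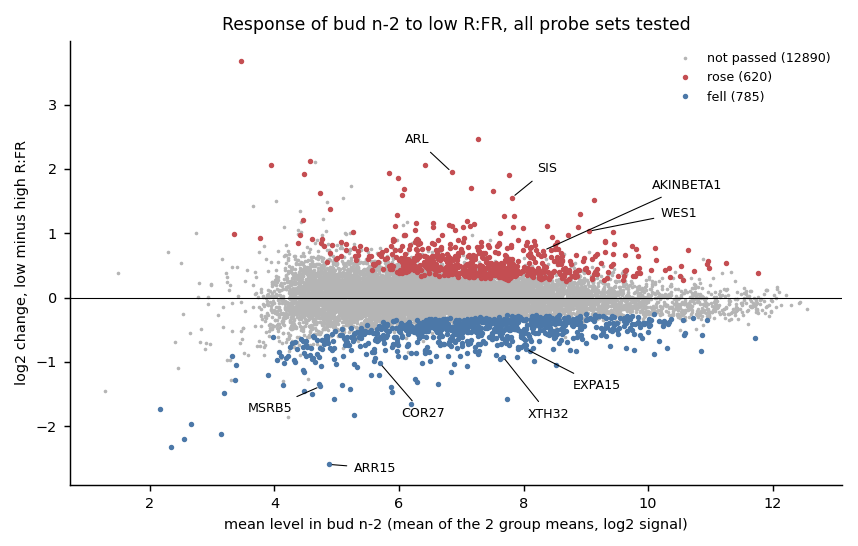
Response of every tested probe set in bud n-2. The horizontal axis is the mean level in bud n-2 (log2 signal), the vertical axis the log2 change from high to low R:FR; red points rose (620), blue points fell (785) and grey points did not pass. The changes spread to both sides of 0, and most of those that passed are under 1 on the log2 scale.

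Functions are described through genes with a name. A probe set could be tied to exactly 1 gene for 7765 genes tested, of which 300 rose (3.86%) and 392 fell (5.05%), together 8.91%, while 708 of the 1405 probe sets that passed have no single gene name here. Over these named genes the median change was 0.01 and 51.9% lay above 0. Every list count below is to be read beside the 3.86% that rose and the 5.05% that fell. The sign of a list median near 0 is not settled: of 38 list medians within 0.1 of 0, 24 changed sign in at least 1 of the other settings run. Without high R:FR replicate 2, 2.33% of the named genes rose and 3.62% fell. Most of them carry only a locus number, and only 40 of the rises and 54 of the falls have a gene symbol, so each list below holds the members that could be named and not the whole pathway. Changes are log2 differences of array signal ± SE, low minus high R:FR, with 3 arrays a group, and each adjusted p is limma's over all 14295 probe sets. In a whole bud, a change in the share of a cell type and a change in transcript per cell cannot be told apart.

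Hormone-linked genes gave some of the clearest changes. WES1, a GH3 enzyme that conjugates auxin to amino acids, had signals of 427, 328 and 361 in the 3 arrays under high R:FR and 674, 801 and 800.0 under low R:FR. It rose 2.04-fold (log2 1.03 ± 0.12, adjusted p = 5.3e-05), and the groups lay far apart. GH3.17, a second enzyme of that family, which joins auxin to glutamate, went from 64.5, 40.9 and 69.9 to 103, 95.1 and 114 (log2 0.87 ± 0.18, adjusted p = 0.00559), again without overlap. Of the 8 tested genes of auxin response and transport these 2 rose and none fell, with a list median of 0.01; the related GH3.3 and GH3.9 had changes of -0.34 and -0.18 (adjusted p = 0.255 and 0.654), and the auxin synthesis genes YUC2 and YUC4 0.06 and -0.44 (adjusted p = 0.878 and 0.394). Both rises were kept without high R:FR replicate 2 and in each fit that left out another bud n-2 array.

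ARR15, a type-A response regulator that cytokinin induces and that damps cytokinin signalling, had signals of 48.8, 77.9 and 97.7 under high R:FR and 7.01, 15.3 and 15.8 under low R:FR. The low R:FR arrays were all dim, so ARR15 fell at least 3.18-fold (adjusted p = 4.08e-05). Of 4 tested cytokinin genes it alone passed, though all 4 lay below 0 (median -0.23). RR16, another type-A regulator, had a change of -0.28 (adjusted p = 0.326), and the cytokinin glucosyltransferase genes UGT76C1 and UGT76C2 had changes of -0.18 and -0.18.

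ARL, a relative of ARGOS that enlarges organs through cell expansion, had signals of 61.7, 64.4 and 50.3 under high and 214, 216 and 249.7 under low R:FR (log2 1.95 ± 0.15, adjusted p = 1.4e-06). Among called genes with a symbol it had the largest rise, and it was the 1 of 9 tested organ polarity and meristem genes that passed. XERICO, a RING-type protein whose overexpression raises abscisic acid levels, went from 429, 464 and 443 to 665, 679 and 680.1 (log2 0.60 ± 0.13, adjusted p = 0.00881). SIS, named for its induction by salt, rose from 194, 113 and 104 to 330.2, 458 and 381 (log2 1.55 ± 0.27, adjusted p = 0.00201). XERICO and SIS were the 2 of 9 tested lipocalin and drought- or salt-induced genes that rose, none fell, and the list median was 0.16. EIN3, the transcription factor at the end of the ethylene pathway, was chosen after its values were seen and rose by 0.29 (adjusted p = 0.0483; adjusted p = 0.134 without high R:FR replicate 2), a call lost in 5 of the 6 fits that left out a bud n-2 array. Of the 4 gibberellin receptor and F-box genes tested none passed by limma, 2 had an unadjusted p under 0.05, and the changes ran from -0.07 to 0.60.

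Several genes of amino acid breakdown rose. Of 6 tested members of the list for amino acid and lipid breakdown, 4 rose, with a list median of 0.46, whereas 3.86% of all named genes rose. The lists were chosen with earlier results of these data known. Neither this share nor those of the lists below can therefore test for an excess. The largest was AT4G33150, LKR/SDH, a bifunctional enzyme that opens the breakdown of lysine. Its signals were 89.6, 78.9 and 103 under high R:FR and 133, 181 and 197 under low R:FR, a 1.87-fold rise (log2 0.90 ± 0.14, adjusted p = 0.00107). Every low R:FR array lay above the highest high R:FR array.

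The other 3 rises lie next to each other in the mitochondrial breakdown of leucine. IVD, isovaleryl-CoA dehydrogenase, forms the substrate of 3-methylcrotonyl-CoA carboxylase, whose subunits MCCA and MCCB encode. MCCB went from 188, 171 and 190.4 to 248, 247 and 231 (log2 0.40 ± 0.08, adjusted p = 0.00621). MCCA went from 99.4, 56.3 and 117 to 133, 134 and 148 (log2 0.67 ± 0.19, adjusted p = 0.0329), and IVD from 63.5, 43.8 and 69.4 to 76.1, 89.1 and 82.5 (log2 0.51 ± 0.15, adjusted p = 0.0409). No array of one group reached the range of the other for these 3, but high R:FR replicate 2 was the lowest array for each. Without it LKR/SDH and MCCB still passed (adjusted p = 0.00636 and 0.0228) and MCCA and IVD did not (0.105 and 0.163), so 2 members rose and the median was 0.36. MCCA and IVD also lost their calls without each low R:FR array, with changes of 0.36 to 0.88 and 0.31 to 0.64 over the 6 fits that left out 1 bud n-2 array.

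The remaining members of that list did not rise. PPDK, pyruvate orthophosphate dikinase, had a change of 0.35 (adjusted p = 0.707). BCAT4, a branched-chain aminotransferase that works in methionine-derived glucosinolate synthesis and so is no breakdown enzyme, passed with a negative change but was dim on every array of both groups, and no fall can be read from it.

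Further enzymes of fuel use were chosen after their values were seen. ETFALPHA, a subunit of the electron-transfer flavoprotein that takes electrons from IVD, rose by 0.31 (adjusted p = 0.0295), whereas ETFQO, the next carrier, had a change of 0.04 (adjusted p = 0.905) and ALDH6B2, of valine breakdown, 0.16 (0.349). FDH, mitochondrial formate dehydrogenase, went from 202, 149.8 and 251 to 315, 373 and 394 (log2 0.87 ± 0.18, adjusted p = 0.00513). PAHX, phytanoyl-CoA hydroxylase, which acts on the phytol side chain released from chlorophyll, rose by 0.42 (adjusted p = 0.00868). PIP, proline iminopeptidase, rose by 0.43 (adjusted p = 0.00794), and DPL1, a lyase of sphingolipid breakdown, by 0.50 (adjusted p = 0.00899). Low R:FR replicate 3 was needed for the calls of PAHX, PIP and DPL1 (changes of 0.32 to 0.47, 0.34 to 0.48 and 0.44 to 0.55 over the fits that left out 1 bud n-2 array), and that of ETFALPHA was lost in 4 of 6 such fits. SDP1, a triacylglycerol lipase, and DELTA-OAT, ornithine aminotransferase of arginine breakdown, rose by 0.45 and 0.46 (adjusted p = 0.0472 and 0.0481). Both lost the call without high R:FR replicate 2 (adjusted p = 0.184 and 0.175) and, over the 6 fits that left out an array, in 4 and 5. ALDH7B4, an aldehyde dehydrogenase of the antiquitin family that detoxifies aldehydes under stress, rose from 526, 492 and 482 to 621, 678 and 749 (log2 0.45, adjusted p = 0.00403). It was the 1 of 8 tested aldehyde dehydrogenase genes that passed.

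AKINBETA1, a regulatory subunit of the energy-sensing SnRK1 kinase, had signals of 271, 242 and 233 under high and 383, 439 and 416 under low R:FR. It rose by 0.73 ± 0.09 (adjusted p = 0.00015) and kept its call without each bud n-2 array in turn. The other 2 tested genes of sugar starvation, trehalose and SnRK1 did not pass.

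Autophagy genes lay mostly above 0, by small amounts. ATG8 proteins are ubiquitin-like proteins attached to the growing autophagosome membrane. Of 11 tested autophagy genes 3 rose, none fell and 10 lay above 0, with a median of 0.31 (51.9% of all named genes lay above 0). All members but ATG3 and AT5G66930 are ATG8 genes, so these counts mostly describe that family. ATG8F, the brightest of the 3 that rose, went from 745, 857 and 789 to 1017, 1072 and 1008 (log2 0.38 ± 0.10, adjusted p = 0.024). ATG8E went from 169, 244 and 148 to 308, 272 and 258 (log2 0.61 ± 0.15, adjusted p = 0.0192), so that high R:FR replicate 2 came close to the low R:FR arrays. AT5G66930, ATG101, part of the kinase complex that starts autophagy, rose by 0.46 (adjusted p = 0.0497), at the edge of the threshold. ATG8C and ATG8H had changes of 0.32 and 0.39 (adjusted p = 0.0852 and 0.306), ATG3, the enzyme that attaches ATG8 to lipid, 0.14 (0.443) and ATG8G -0.00. None of the 3 calls held in all fits that left out a bud n-2 array: ATG8E kept its call in 3 of 6, ATG8F in 1 and ATG101 in 0. Without high R:FR replicate 1, high R:FR replicate 3 or low R:FR replicate 1 no member passed, while the list median stayed between 0.24 and 0.38 over the 6 fits.

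**Figure D2:**
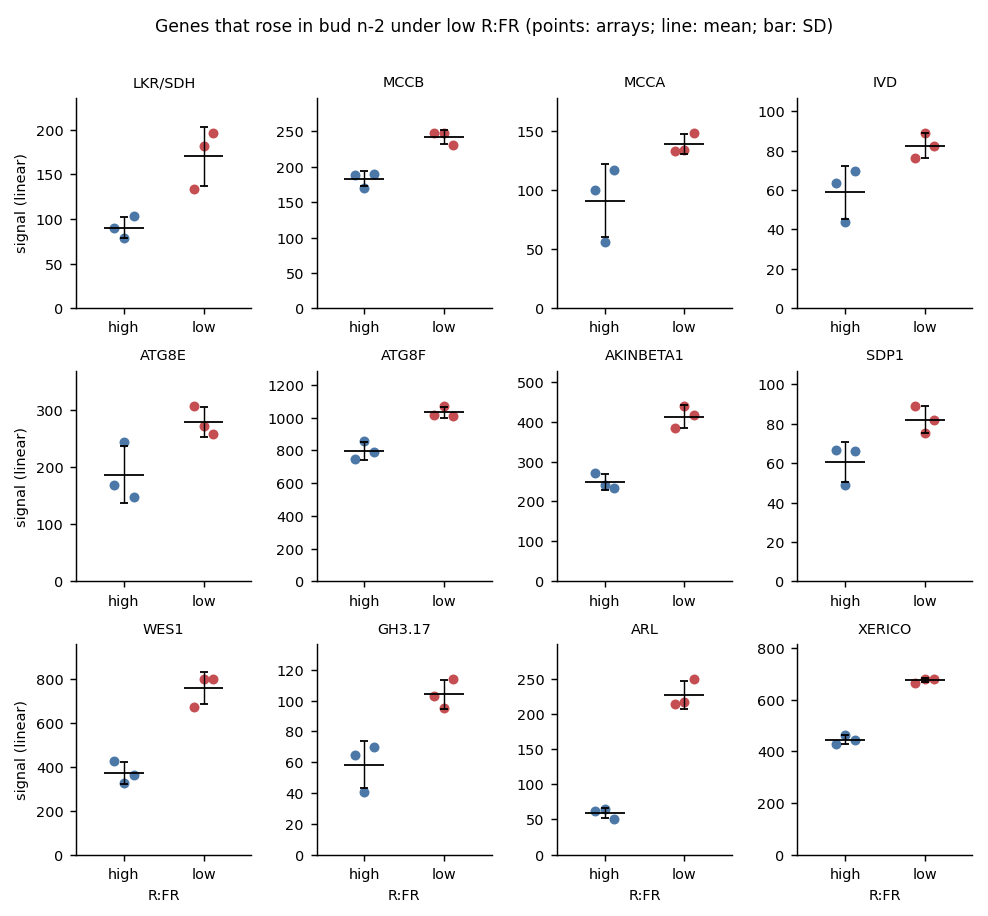
Signals of 12 genes that rose in bud n-2, one panel a gene. Each point is an array (blue, high R:FR; red, low R:FR; 3 a group), the line is the mean and the bar the SD, on a linear axis from 0. Groups are far apart for WES1, ARL and XERICO, and the lowest high R:FR point of MCCA, IVD and GH3.17 is replicate 2.

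Transcripts encoded in the plastid genome lay mostly above 0, with few calls. Of 69 plastid-encoded genes tested, 4 rose, none fell and 56 lay above 0, with a median of 0.23. The share that rose was 5.80%, against 3.86% of all named genes, of which 51.9% lay above 0. All 4 belong to the 35 genes of the photosystems, cytochrome complex and ATP synthase, whose median was 0.28. They were petA (log2 0.61, adjusted p = 0.00793) and petN (0.71, 0.0171) of the cytochrome b6f complex, psbN (0.64, 0.0174), which is needed to assemble photosystem II, and atpH (0.81, 0.0242), the ring subunit of the ATP synthase. For petA the signals were 227, 163 and 156 under high and 308, 265 and 248 under low R:FR, and the groups did not overlap. Such separation held for 7 of the 69, against 28.8% of all probe sets tested, and the list's median per array, relative to each gene's mean over the 6 arrays, was 0.09 in high R:FR replicate 1, above 0.04 and 0.05 in low R:FR replicates 2 and 3. None of 10 genes of the NDH complex passed by limma (1 had an unadjusted p under 0.05), 9 lay above 0 and the median was 0.27; ndhE came nearest, with 0.97 ± 0.30 (adjusted p = 0.0503). The 15 plastid ribosomal protein genes had a median of 0.07. Without high R:FR replicate 2 petA alone passed and the median of the 69 was 0.13, and the count ran from 1 to 15 over the fits that left out 1 bud n-2 array. Labelling started from the 3-prime poly(A) end per the labels' kit, and plastid transcripts mostly lack such a tail; whether this bears on the shift was not tested.

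Nuclear genes of photosynthesis lay near the median of all named genes. Of 17 tested none rose, 1 fell, 11 lay above 0 and the median was 0.05. The one that fell was TAAC, a thylakoid ATP/ADP carrier, from 127, 120.3 and 125 to 91.5, 92.7 and 86.3 (log2 -0.46, adjusted p = 0.0103), a call lost without low R:FR replicate 3. SBPASE, sedoheptulose-bisphosphatase of the Calvin cycle, chosen after its values were seen, fell by 0.29 (adjusted p = 0.0472), a call lost in all 6 fits that left out a bud n-2 array.

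Transcription factors and regulators that rose came from several families. MYBC1, a MYB-related factor, had signals of 70.2, 46.1 and 60.9 under high and 108, 102 and 115 under low R:FR (log2 0.89 ± 0.16, adjusted p = 0.00199). bHLH121, a regulator of the iron deficiency response, was the 1 of 11 tested bHLH genes that passed and rose from 167, 126 and 143 to 202, 207 and 206 (log2 0.51, adjusted p = 0.00536). SKP2A, an F-box protein that marks cell-cycle factors for degradation, rose from 184, 163 and 193 to 239, 264 and 307 (log2 0.58, adjusted p = 0.00305). MYBC1 was chosen after its values were seen, and all 3 kept their calls without each bud n-2 array. AGL71, a MADS-box factor of the floral transition, rose by 0.82 (adjusted p = 0.0378) from 22.8, 23.7 and 22.5 under high to 40.6, 39.1 and 42.0 under low R:FR, near the dim range, and lost the call in every such fit.

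Factors of the cuticle also moved. AT5G61590, DEWAX, a repressor of wax synthesis, rose by 0.47 (adjusted p = 0.0254), while WSD1, a wax ester synthase, fell by 0.41 (adjusted p = 0.0359); the other 2 tested cuticle genes did not pass. SHN3, an activator of cutin and wax genes chosen after its values were seen, went from 28.3, 30.3 and 36.6 to 45.4, 52.6 and 59.0 (log2 0.72, adjusted p = 0.024). WSD1 and SHN3 lost their calls without high R:FR replicate 2 (adjusted p = 0.107 and 0.0673) and in 5 and 4 of the 6 such fits in all, and DEWAX without high R:FR replicate 3 or low R:FR replicates 2 or 3.

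Several of the rises ranked first by fitted change belong to genes that the annotation used here gives only as a locus. AT5G02580 was dim under high R:FR, at 3.33, 3.70 and 2.41, and reached 36.9, 42.0 and 40.3 under low R:FR, a rise of at least 1.78-fold (adjusted p = 0.00185). AT4G35690 went from 43.9, 37.7 and 33.2 to 98.6, 119 and 128 (log2 1.59 ± 0.34). AT3G07350 went from 115, 85.3 and 97.8 to 213, 225 and 218 (log2 1.15 ± 0.16, adjusted p = 0.000357). The other locus-only genes among the first 15 rises with non-overlapping groups were AT4G14930, AT2G20670, AT1G21000, AT5G03230, AT2G28400, AT1G80130 and AT5G45310, with changes of 1.05 to 1.30, and AT2G15830 and AT5G42830, dim under high R:FR and at least 1.41-fold and 1.5-fold higher. AT1G26800 rose by 1.12 with an adjusted p of 0.0461 and lost its call in all 6 fits that left out a bud n-2 array. AT2G15830 lost its call without each low R:FR array.

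Several genes of cell wall building and loosening fell. EXPA15, an expansin, a class of proteins that loosen the wall during growth, had signals of 365, 337 and 337 under high R:FR and 172, 213 and 215 under low R:FR. It was 1.74-fold higher under high R:FR (log2 -0.80 ± 0.10, adjusted p = 9.53e-05), without overlap. EXPA4 went from 255, 250.3 and 245 to 206, 213 and 194 (log2 -0.29 ± 0.08, adjusted p = 0.034). The other 5 of 7 tested expansins did not pass and all lay above 0, so the list median was 0.09, opposite in sign to its 2 calls; it was -0.003 and -0.013 without low R:FR replicates 1 and 3.

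XTH32, a xyloglucan endotransglucosylase/hydrolase that rejoins wall xyloglucan, had signals of 223, 333 and 293 under high and 155, 167 and 124 under low R:FR (log2 -0.92 ± 0.14, adjusted p = 0.000753). No other of the 3 tested xyloglucan-modifying genes passed; XTH16 had a change of -0.39 (adjusted p = 0.104) and EXGT-A3 of 0.21 (0.246). GH9C2, an endo-glucanase of glycosyl hydrolase family 9, went from 216, 207 and 211 to 145, 140.3 and 108 (log2 -0.70 ± 0.12, adjusted p = 0.00126), the 1 of 6 tested members of that family that passed. EXPA15, XTH32 and GH9C2 kept their calls without each bud n-2 array in turn, and EXPA4 lost its call in all 6 such fits.

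Cellulose synthase-like genes build the backbones of other wall polysaccharides. Of 11 tested genes of the list for cellulose synthesis 2 fell, none rose and 2 lay above 0, with a median of -0.15. The tested members were mostly such cellulose synthase-like genes and held no cellulose synthase (CESA) gene, so the list says little about cellulose itself. CSLA01, of the glucomannan synthase family, went from 128, 128 and 89.8 to 72.0, 76.8 and 48.4 (log2 -0.82 ± 0.18, adjusted p = 0.00927), and CSLC04, a xyloglucan backbone synthase, from 63.9, 55.0 and 58.9 to 39.7, 37.6 and 49.6 (log2 -0.50 ± 0.15, adjusted p = 0.0461). COB, which orients cellulose microfibrils, had a change of -0.23 (adjusted p = 0.105). The call of CSLA01 was lost without low R:FR replicate 3 and that of CSLC04 in 5 of the 6 fits, with changes of -0.99 to -0.61 and -0.62 to -0.42 over them.

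The TBL family acetylates wall polysaccharides. TBL45 went from 185, 227 and 252 to 144, 169.7 and 137 (log2 -0.55 ± 0.13, adjusted p = 0.0104), and TBL28 fell by at least 1.39-fold to a dim level (adjusted p = 0.0381, or 0.0524 once dim values are raised to the 40th percentile). They were the 2 of 17 tested members that passed, and the family median was -0.02. ATPMEPCRB, PME41, a pectin methylesterase, fell by at least 1.23-fold to a dim level as well (adjusted p = 0.0253, or 0.135 with raised dim values). TBL45 lost its call without high or low R:FR replicate 3, and TBL28 and PME41 lost theirs in 5 and 4 of the 6 such fits, high R:FR replicate 2 among the arrays concerned (adjusted p = 0.131 and 0.0905 without it).

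Cytoskeletal genes that position wall deposition included TUB9, a beta-tubulin, which went from 339.6, 319 and 331 to 241, 249 and 226 (log2 -0.47 ± 0.09, adjusted p = 0.00324). It was the 1 of 8 tested tubulin and actin genes that passed (median -0.14). TRM28, of the TON1-recruiting-motif proteins that organise cortical microtubules, fell by 0.66 (adjusted p = 0.0233), and WLIM2a, an actin-bundling protein chosen after its values were seen, by 0.28 (0.0486). RALFL34, a peptide signal of the RALF family, went from 1451, 1350.1 and 1317 to 996, 1157 and 1026 (log2 -0.37, adjusted p = 0.0165). TRM28 and RALFL34 kept their calls without high R:FR replicate 2 and lost them in 4 and 3 of the 6 fits that left out a bud n-2 array. The call of WLIM2a was lost without that array (adjusted p = 0.16) and in 5 of the 6 fits in all.

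**Figure D3:**
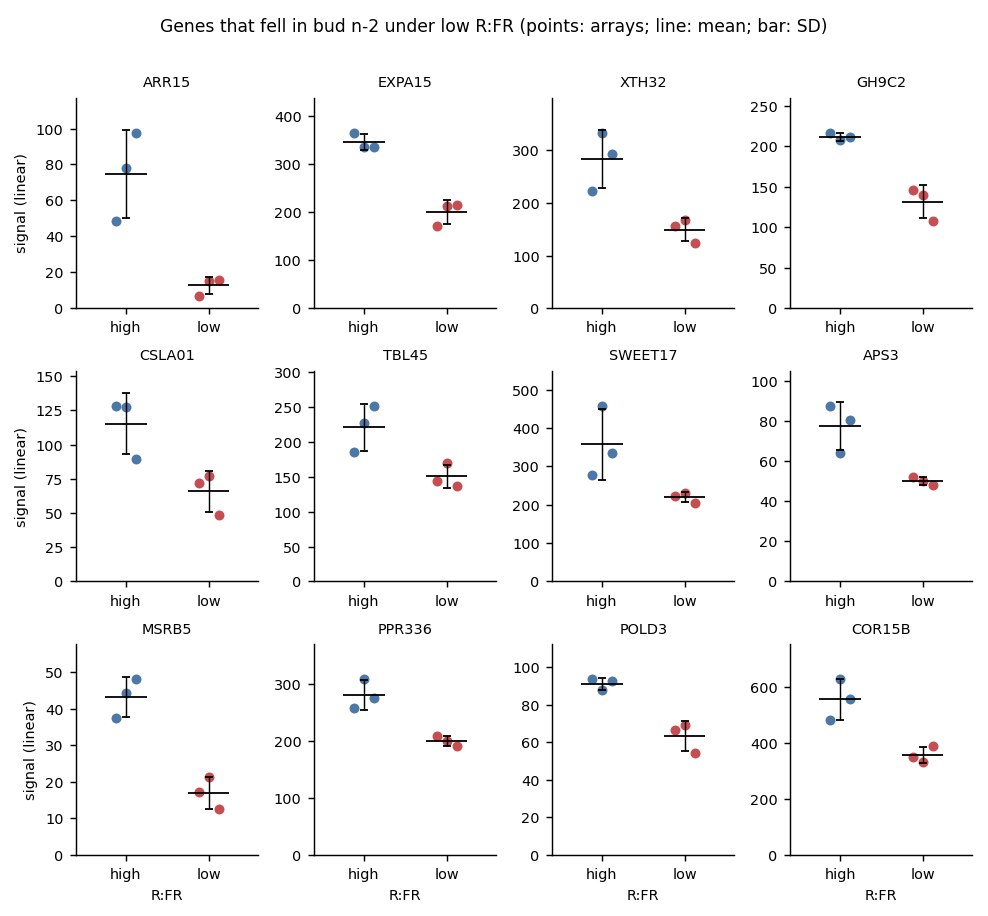
Signals of 12 genes that fell in bud n-2, one panel a gene. Each point is an array (blue, high R:FR; red, low R:FR; 3 a group), the line is the mean and the bar the SD, on a linear axis from 0. The groups do not overlap in any panel, and the low R:FR points of ARR15 and MSRB5 lie near 0 on their axes, in the dim range.

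Some genes of gene expression fell, among them members of the machinery of organelles and of transcription. Other parts of that machinery did not: the 4 tested plastid RNA polymerase genes all lay above 0 (median 0.17). None of these 4 passed by limma, and 1 had an unadjusted p under 0.05. Of the 15 plastid ribosomal protein genes none passed either, with 1 at an unadjusted p under 0.05 (median 0.07). Pentatricopeptide repeat proteins bind and process organelle RNA. Of 12 tested, 3 fell, none rose and 3 lay above 0, with a median of -0.29. PPR336, a mitochondrial ribosome-associated member, went from 258, 308 and 274 to 207, 199 and 190.1 (log2 -0.49 ± 0.09, adjusted p = 0.00235). PPR596 fell by 0.43 (adjusted p = 0.0101) and OTP81, a plastid RNA editing factor, by 0.67 (adjusted p = 0.0274). All 3 passed without high R:FR replicate 2; PPR596 lost its call without low R:FR replicate 1, OTP81 lost its call in 4 of the 6 fits that left out a bud n-2 array, and the count of members that fell ran from 1 to 3.

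RBL (AT3G55510), REBELOTE, a nucleolar protein, went from 160.0, 125 and 146 to 82.2, 106 and 95.4 (log2 -0.60 ± 0.12, adjusted p = 0.00459). It was the 1 of 4 tested genes of ribosome biogenesis that passed, and all 4 lay below 0 (median -0.25); AT5G14520, PES, had a change of -0.26 (adjusted p = 0.0787). Of 12 nuclear RNA polymerase subunit genes 2 fell, none rose and the median was -0.21. They were NRPB12, from 314, 367 and 331 to 249, 290.3 and 256 (log2 -0.35, adjusted p = 0.0221), and NRPB7 (log2 -0.39, adjusted p = 0.0432), and neither passed without high R:FR replicate 2 (adjusted p = 0.0746 and 0.107); over the 6 fits that left out an array the call of NRPB12 was lost in 3 and that of NRPB7 in all. HLL, a mitochondrial ribosomal protein gene, TRM82, of a transfer RNA methyltransferase, PDF1B, an organelle peptide deformylase, and UPP, uracil phosphoribosyltransferase, were chosen after their values were seen. They fell by 0.48, 0.48, 0.38 and 0.36 (adjusted p = 0.0453, 0.0149, 0.0264 and 0.0192), and HLL and PDF1B lost the call without high R:FR replicate 2. Of the 6 fits that left out an array, HLL lost its call in 4, TRM82 in 3, PDF1B in 5 and UPP in 2.

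DNA replication and cell division gave few calls. POLD3, a subunit of DNA polymerase delta, went from 93.7, 87.5 and 92.4 to 66.4, 69.4 and 54.1 (log2 -0.53 ± 0.11, adjusted p = 0.00552), without overlap, and kept its call without each bud n-2 array. ICU2, the catalytic subunit of polymerase alpha, had a change of -0.02 (adjusted p = 0.958), POLA3 of -0.28 (0.219) and PRL, an MCM helicase subunit, of -0.16 (0.367). None of 5 tested core histone genes passed by limma, 2 had an unadjusted p under 0.05, and all 5 lay below 0 (median -0.15); HTB1 came nearest, with -0.33 ± 0.11 (adjusted p = 0.0641). None of 9 genes of mitosis and cytokinesis passed either, 1 had an unadjusted p under 0.05, and their changes ran from -0.24 to 0.18 around a median of 0.03.

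**Figure D4:**
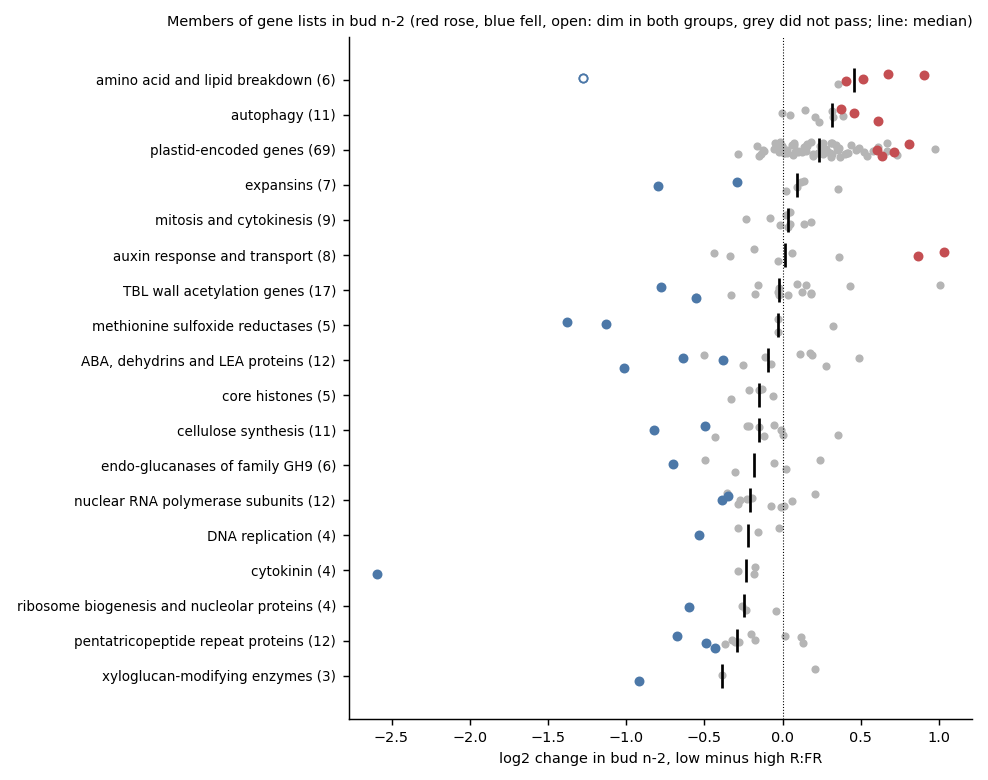
Log2 changes in bud n-2 of the tested members of 18 gene lists, with the number tested in brackets. Each point is a gene (red rose, blue fell, open passed but dim in both groups, grey did not pass) and the black line is the list median, against 0.01 over all named genes. Breakdown and autophagy genes lie mostly to the right of 0, replication, histone, pentatricopeptide repeat and nuclear RNA polymerase genes mostly to the left. The row for cellulose synthesis holds mostly cellulose synthase-like genes, and that for autophagy mostly ATG8 genes.

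Some redox genes fell. Methionine sulfoxide reductases repair oxidised methionine. MSRB5 had signals of 37.3, 44.3 and 48.1 under high R:FR and 17.1, 21.3 and 12.4 under low R:FR, where it was dim, a fall of at least 1.91-fold (adjusted p = 0.00175). MSRB6 likewise fell by at least 1.44-fold (adjusted p = 0.0386, or 0.182 with raised dim values), and the other 3 of 5 tested members did not pass, with changes of -0.03 to 0.32. SAPX, the stromal ascorbate peroxidase, went from 235, 220.4 and 218 to 147, 192 and 142 (log2 -0.50 ± 0.11, adjusted p = 0.0109). GSTU20, a glutathione transferase, fell by 0.42 (adjusted p = 0.0441; 0.175 without high R:FR replicate 2), and the call of SAPX was lost without low R:FR replicate 1 or 3. GSTU20 and MSRB6 each lost their call in 4 of the 6 fits that left out an array. The reductases, SAPX and GSTU20 belong to a list of 27 tested glutathione transferases and redoxins, of which 4 fell, none rose and the median was -0.03.

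VTC4, ATMDAR2 and APS3 were chosen after their values were seen. VTC4, an enzyme of ascorbate synthesis, went from 187, 214 and 192 to 140.3, 169 and 151 (log2 -0.37, adjusted p = 0.0182), and ATMDAR2, which regenerates ascorbate, from 165, 176 and 161 to 124, 133 and 133 (log2 -0.36, adjusted p = 0.024). APS3, an ATP sulfurylase, the enzyme that activates sulfate, went from 87.7, 64.3 and 80.4 to 52.2, 50.3 and 47.9 (log2 -0.62 ± 0.13, adjusted p = 0.00559). APS3 kept its call without each bud n-2 array, whereas VTC4 and ATMDAR2 lost theirs without high R:FR replicate 2 (adjusted p = 0.0633 and 0.0715), low R:FR replicate 1 or low R:FR replicate 3.

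In sugar transport SWEET17, a vacuolar fructose transporter, had signals of 279, 458 and 335 under high and 222, 230.4 and 205 under low R:FR (log2 -0.68 ± 0.14, adjusted p = 0.00604). The other 11 tested SWEET genes did not pass, and the family median was 0.06. None of 6 tested genes of starch and sucrose metabolism passed by limma, and 1 had an unadjusted p under 0.05.

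Among glycosyltransferases of specialised metabolism UGT78D1, which attaches rhamnose to flavonols, went from 262, 312 and 282 to 173, 172 and 190.4 (log2 -0.67 ± 0.11, adjusted p = 0.000897). UGT74B1, of glucosinolate synthesis, fell by 0.52 and UGT85A2 by 0.57 (adjusted p = 0.0132 and 0.0367). The 3 were the falls among 22 tested UDP-glycosyltransferases, none rose, and the median was -0.14. UGT78D1 was also the 1 of 6 tested flavonoid genes that passed, with 5 of 6 below 0. Of 13 tested glucosinolate and beta-glucosidase genes 11 lay below 0, with a median of -0.26, but the one that passed was BCAT4, dim throughout. UGT74B1 lost its call without high R:FR replicate 2 (adjusted p = 0.0613) or low R:FR replicate 3, and UGT85A2 in 5 of the 6 fits that left out a bud n-2 array.

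Cold-regulated genes and chaperones fell in part. COR27, a cold- and light-regulated gene tied to the clock, went from 83.5, 64.5 and 73.6 to 32.5, 36.4 and 40.4 (log2 -1.02 ± 0.21, adjusted p = 0.00552). COR15B, a chloroplast membrane protector, went from 482, 629 and 557 to 349.8, 333 and 388 (log2 -0.63 ± 0.16, adjusted p = 0.0197), and AT2G46140, LEA27, fell by 0.38 (adjusted p = 0.0381). These were the 3 of 12 tested abscisic acid, dehydrin and late embryogenesis genes that fell; none rose, and the median was -0.09. COR15A had a change of -0.50 (adjusted p = 0.0636) and COR47 of 0.19 (0.317). Without high R:FR replicate 2 COR27 was the 1 that passed (adjusted p = 0.0108, against 0.0803 for COR15B); over the 6 fits that left out an array COR15B lost its call in 3 and LEA27 in 5.

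Hsp70-2, a cytosolic chaperone, went from 152, 148 and 131 to 98.2, 90.2 and 105 (log2 -0.56 ± 0.10, adjusted p = 0.00225), and Cpn60beta2, a subunit of the plastid chaperonin, from 512, 451 and 457 to 319.8, 423 and 325 (log2 -0.42 ± 0.12, adjusted p = 0.0282). They were the 2 of 5 tested chaperone genes that passed, and both passed without high R:FR replicate 2, though Cpn60beta2 lost its call in 3 of the 6 fits that left out a bud n-2 array. HYH, a bZIP factor close to HY5 that promotes light responses, went from 31.1, 41.5 and 26.0 to 23.5, 20.8 and 17.7 (log2 -0.65 ± 0.18, adjusted p = 0.0309; 0.133 without high R:FR replicate 2), a call lost in 4 of the 6 fits that left out a bud n-2 array. It was the 1 of 6 tested light-signalling genes that passed.

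Of the 15 falls ranked first by fitted change among genes with non-overlapping groups, 10 are known here by locus alone. The place in that order is not measured for the 7 that were dim under low R:FR. AT4G34950 went from 149.9, 106 and 135 to 35.0, 36.0 and 55.3 (log2 -1.65 ± 0.20, adjusted p = 8.73e-05). AT2G43550 was the brightest, at 464, 639 and 495 under high and 264, 292 and 215 under low R:FR (log2 -1.05 ± 0.13, adjusted p = 0.000111). AT4G17470, AT1G54020, AT1G69760 and AT1G53035 had changes of -1.35 to -0.93, and the falls of AT3G15720, AT3G44450 and AT3G11850 to dim levels were at least 1.26-fold, 1.59-fold and 1.12-fold. For AT3G61920, whose low R:FR arrays were dim, no bound above 1 could be given. The symbol-bearing genes of this set were ARR15, MSRB5, MSRB6, COR27 and JAL23, a jacalin-related lectin, at 124, 197 and 75.4 under high and 55.5, 65.3 and 33.5 under low R:FR (log2 -1.31 ± 0.28, adjusted p = 0.00756). With dim values raised AT3G11850, AT3G61920 and AT4G17470 no longer passed (adjusted p = 0.449, 0.98 and 0.0559). In the fits that left out an array AT3G11850 lost its call in 5 of 6, AT3G61920 in 2 and AT4G17470 in 1.

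The same contrast in bud n, made on other arrays, gave 12 calls among the 14295 probe sets (0.0839%). Of the 620 probe sets that rose in bud n-2, 10 also rose in bud n and 434 had a change of the same sign there. Of the 785 that fell, 1 also fell and 430 had the same sign. The share of the same sign over all probe sets tested was not computed, so the same-sign counts do not show agreement between the buds. A pass in one bud and not in the other does not show a difference, so the responses were compared by the interaction term of the fit. It passed for 147 probe sets (1.03%), and for 141 of the 1405 called in bud n-2 (10.0%), 45 of them rises and 96 falls. The interaction contains the bud n-2 change by which the 1405 were called, so a higher share among them is built in.

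LKR/SDH was among the genes whose response differed. Its bud n signals were 61.5, 78.3 and 66.2 under high R:FR and 68.2, 74.3 and 63.5 under low R:FR, and the responses differed by 0.90 ± 0.20 (adjusted p = 0.0455). PPR336 had a change of 0.11 in bud n, and its responses differed by -0.60 ± 0.13 (adjusted p = 0.0342). Hsp70-2 had a change of 0.09 in bud n (difference -0.65, adjusted p = 0.0379) and bHLH121 one of -0.17 (difference 0.68, adjusted p = 0.0379). For the wall genes the interaction did not pass: the bud n change was -0.24 for EXPA15 (difference adjusted p = 0.0622) and -0.12 for XTH32 (0.0627). It also did not pass for MCCB (0.0708), RBL (0.0717) or APS3 (0.0577). The median change of the breakdown list was -0.03 in bud n and 0.46 in bud n-2, that of autophagy 0.13 and 0.31, and that of the pentatricopeptide repeat genes 0.02 and -0.29. In these lists the interaction passed for 1 of 6 breakdown genes (LKR/SDH), 0 of 11 autophagy genes and 1 of 12 pentatricopeptide repeat genes (PPR336). The medians therefore do not show that a list as a whole responded differently in the buds. The interaction depends on the fit: without a trend of the prior variance on signal limma passed 0 probe sets, with 2038 at an unadjusted p under 0.05 (2127 with the trend), and with 1 of the 12 arrays left out it passed 2 to 264.

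**Figure D5:**
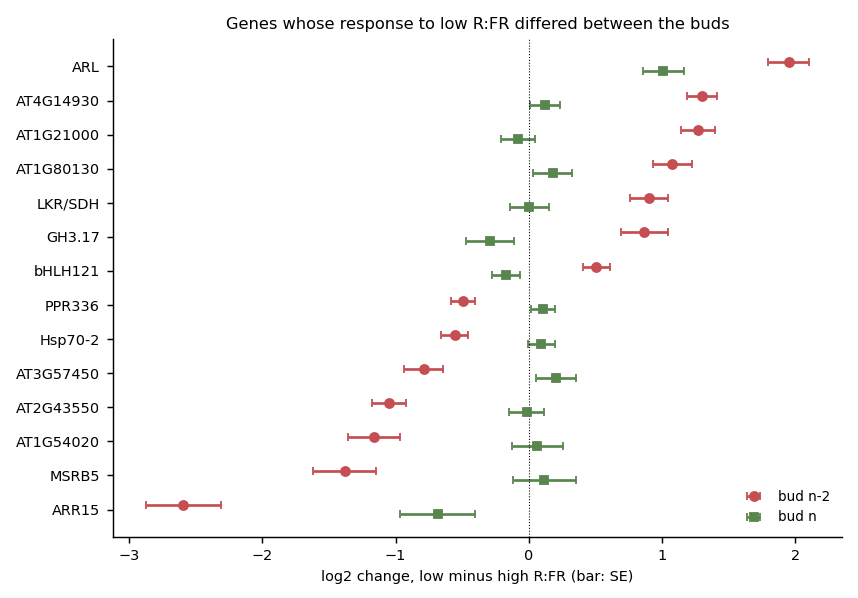
Log2 change from high to low R:FR (bar, SE) in bud n-2 (red circles) and bud n (green squares). Of the named genes that passed by the interaction term, 14 are shown. The bud n values lie near 0 for most of them. ARL rose in both buds, and the fitted change of ARR15 lay below 0 in both. The low R:FR arrays of ARR15 and MSRB5 in bud n-2 were dim, so the size of their change is not measured.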

How the data were processed

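The deposited table holds 1 signal intensity a probe set and array on a linear scale; per the submitters' processing notes the authors made it with MAS5 and GCOS, with versions not given in the sources used here. A single factor scales each array in MAS5, and the mean after trimming 2% at each end was 100 on all 12. The 64 control probe sets were left out of the tests.

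Intensities were log2-transformed with no offset. Group means were estimated from all 12 arrays in R 4.3.3 (limma 3.58.1, eBayes with a trend). Benjamini-Hochberg adjustment ran over the 14295 probe sets above the filter, with a threshold of 0.05; the code was tested on simulated data. For a probe set dim in 1 group the fold is a lower bound, taken with each dim value raised to its array's 40th percentile. Alternatives covered scaling (quantile, median), an offset of 32, the filter (none, or the 60th percentile), array weights, a fit without the trend, a replicate block, the 6 bud n-2 arrays by themselves, a minimum of 2-fold, and leaving out each array. Raised dim values and the counts without high R:FR replicate 2 were added after the data were seen.

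Names come from the platform annotation and RefSeq: 13513 probe sets have 1 gene and 503 several; the other 8794, which that annotation does not list, carry no name here. The members and lists were chosen with earlier results of these data known. A set of 32 families was added once the annotation, but no comparison, had been read; 45 wrong matches were dropped before that and 11 after values were seen. The rule named the 15 largest rises and falls among called genes without overlap, and up to 4 called members of each list by smallest p, or its 2 brightest members where none was called; the leftover genes with a symbol were chosen after their values were seen. Sequences were not analysed here.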

Additional observations from a re-analysis of the deposited data

Results flagged for a closer look

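For 12 of the genes picked for description, bud n-2 and bud n responded to low R:FR by different amounts, as tested by the interaction term (limma adjusted p under 0.05). Further named genes passed that are not listed here. Among the 11 tested bHLH genes 2 passed, of which bHLH121 is given. The log2 difference of responses, bud n-2 minus bud n, was 1.35 for AT1G21000, 1.18 for AT4G14930, 1.16 for GH3.17, 0.94 for ARL, 0.90 for AT4G33150 (LKR/SDH), 0.90 for AT1G80130 and 0.68 for bHLH121. It was -1.22 for AT1G54020, -1.03 for AT2G43550, -0.99 for AT3G57450, -0.65 for Hsp70-2 and -0.60 for PPR336. AT3G57450 was chosen after its values were seen. The interaction also passed for ARR15 (-1.91) and MSRB5 (-1.50), but all their low R:FR arrays of bud n-2 were dim, so the size of these differences is not measured, and with dim values raised neither passed (adjusted p = 0.0694 and 0.0895).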

How the results depend on the processing

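The count of 1405 probe sets called in bud n-2 lay between 1012 and 1664 under the settings that kept all bud n-2 arrays and the same threshold. With each of the 12 arrays left out in turn it ran from 646 to 1632, lowest without low R:FR replicates 3 (646) and 1 (773) of bud n-2; rises ran from 252 to 750 (369 without high R:FR replicate 2, 333 without low R:FR replicate 1) and falls from 394 to 882 (440 without low R:FR replicate 1). Asking for a 2-fold change left 85, of which 42 rose and 43 fell. The 147 differences between buds became 230 with 32 added before log2, 444 with array weights, 90 without the filter, 232 with quantile normalization, 35 at 2-fold and 0 without the trend, and 2 to 264 with 1 array left out. The 12 calls in bud n became 24 with array weights and 7 at 2-fold. With replicate number as a block 1274 probe sets passed in bud n-2. Arrays of the same number did not deviate together between its light groups (r = -0.124, 0.0755 and 0.0117). With 3 arrays a group these values cannot show whether arrays of the same number were grown or processed together. Of 72 list medians 28 changed sign in at least 1 setting, 24 of them within 0.1 of 0 to begin with (auxin, mitosis, SWEET, organ polarity and TBL genes among them); the other 4 were those of xyloglucan-modifying (0.128), jasmonate (0.194) and calcium genes (-0.149) without the filter and of P450 and glycosyltransferase genes (0.015) with dim values raised. RALF peptides turned without the filter (0.041) and over the arrays left out (-0.099 to 0.010), abscisic acid genes without the filter (0.016), and expansins with arrays left out (-0.013 and -0.003 to 0.185). AT5MAT and BCAT4, dim in both groups, turned to 0.015 with dim values raised. The settings were followed gene by gene for 171 of the named genes, which held 121 of the 692 named genes called. Of these 121, 48 kept the call in every setting run for them. That share does not describe the other named genes called, and the cause of the lost calls was not tested. Signal limits what can be read of dim probe sets, whose changes are bounds or none.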

Other observations

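A few single genes linked to protein quality control in the endoplasmic reticulum rose in bud n-2. No list of that function was counted, so they do not describe the function as a whole. BZIP17, a membrane-anchored factor released under stress of that compartment, went from 88.3, 46.7 and 63.2 under high R:FR to 81.7, 105 and 105 under low R:FR (log2 0.60 ± 0.17, limma adjusted p = 0.0352), with overlap between the groups. Of 15 tested bZIP genes 1 rose and 1 fell. UBC32, a ubiquitin-conjugating enzyme of the degradation pathway for misfolded proteins, rose from 137, 116 and 126 to 174, 189 and 153 (log2 0.44, adjusted p = 0.022), the 1 of 11 tested enzymes of its kind that passed. DER2.1, a derlin of that pathway chosen after its values were seen, rose from 253, 249.7 and 283 to 385, 329.7 and 341 (log2 0.43, adjusted p = 0.0389). None of the 3 passed without high R:FR replicate 2 (adjusted p = 0.147, 0.0766 and 0.106). Over the 6 fits that left out a bud n-2 array BZIP17 and UBC32 lost their calls in 4 and DER2.1 in 5.

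Of 25 tested chromatin and DNA methylation genes none rose, 2 fell and the median was 0.005. Both falls were RNA polymerase subunits that the list also holds, NRPB12 and NRPB7. A pair of genes outside the list, chosen after their values were seen, rose. SHL1, a histone-mark reader, went from 133, 102 and 121 to 189, 151 and 179 (log2 0.55, adjusted p = 0.0105), and DME, a DNA demethylase, from 58.5, 53.4 and 56.4 to 70.1, 78.4 and 71.6 (log2 0.39, adjusted p = 0.041; 0.104 without high R:FR replicate 2). DME lost its call in all 6 fits that left out a bud n-2 array and SHL1 without low R:FR replicate 1 or 3. The next 4 families had no call by limma in bud n-2. Among 10 ESCRT genes, 9 THO and mediator genes and 13 DNA repair genes 0 had an unadjusted p under 0.05, and among 11 splicing and RNA-binding genes 1 did, with changes from -0.33 to 0.27.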
